A study of Homo sapiens with 18 samples.

Results

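The nuclear-encoded subunits of the respiratory chain and of ATP synthase were followed in the human fetal lung fibroblast line IMR90. They were measured by mRNA-seq and by Ribo-seq, which reads the pieces of mRNA covered by ribosomes, called footprints. Members were the gene symbols beginning NDUFA, NDUFB, NDUFC, NDUFS, NDUFV, UQCR or ATP5, the COX4 to COX8 families, and SDHA to SDHD, with at least 20 footprint reads in coding sequence (CDS) summed over the 9 Ribo-seq libraries. Of the 38716 symbols in the tables, 104 matched these names and 92 had enough footprints. Among the 92 were 78 subunits, with 37 in complex I, 4 in complex II, 8 in complex III, 12 in complex IV and 17 in complex V. The other 14 members were 8 NDUFAF assembly factors, 2 near-identical copies (UQCRHL and ATP5MGL), 2 read-through symbols (NDUFC2-KCTD14 and ATP5MF-PTCD1), the ATP synthase inhibitor ATP5IF1 and the supercomplex factor COX7A2L. NDUFA4 was counted in complex IV, to which the protein belongs despite its name.

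The 18 libraries came from 3 conditions with 3 replicates in each assay. Young cells were low-passage and proliferating, old cells were high-passage and in replicative senescence, and ICM cells were at low passage and received inflachromene, a compound known to bind HMGB1 and HMGB2, abundant proteins of chromatin. The series' design text counts the samples differently (4 young, 4 old and 2 ICM), and the titles were followed. The labels of these libraries give no dose or duration, and the study's text describes a treatment of several days. The methods describe the replicates as independently grown cultures of this single line, lysed in buffer with cycloheximide, and a portion of each lysate went to mRNA-seq of poly(A)-enriched RNA. The molecule labels instead give polyA RNA for Ribo-seq and total RNA for mRNA-seq. In mRNA-seq the fibroblast gene COL1A1 was at 3019 to 15580 CPM (counts scaled to a common library size), CDH5 of endothelium was at 0 in every library, and SFTPC of alveolar epithelium reached at most 0.0887 CPM. KRT18 (27.9 to 289.5 CPM) and CD68 (19.6 to 66.5 CPM), often used as epithelial and macrophage markers, were present in all libraries.

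Complex I takes electrons from NADH, complex II takes them from succinate, and both pass them through coenzyme Q to complex III, then through cytochrome c to complex IV, which reduces oxygen. Complexes I, III and IV pump protons, and complex V lets the protons back and makes ATP. Most subunits are encoded in the nucleus and imported, a few in the mitochondrial genome, and the nuclear genes are classic targets of the transcription factors NRF1, GABP of the ETS family, and YY1. The 13 mitochondrially encoded genes were not analysed here.

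RefSeq promoters (250 bases before to 50 after each gene's start, GRCh38.p14) were matched to 65 of the 78 subunits and searched on both strands for the core letters CGCATGCG (NRF1), CCGGAAGT (ETS) and AAGATGGC (YY1). The NRF1 core lay in 10 of the 65 (15.4%), against 2.19% of all 27305 promoters and 3.88% of the 10384 promoters of genes tested in mRNA-seq. The ETS core lay in 10 (15.4%, against 4.44% and 8.80%) and the YY1 core in 11 (16.9%, against 3.03% and 5.31%). At least 1 of these cores was found in 11 of 32 promoters of complex I, 2 of 3 of complex II, 4 of 7 of complex III, 3 of 10 of complex IV and 8 of 13 of complex V. These are letter matches and not measured binding. The stretches below are shown because they carry such a core (in capitals) ahead of genes whose values follow, written 5′ to 3′ on the strand of the gene, where ACTTCCGG is the ETS core read on the opposite strand. They lie on GRCh38.p14 at chr19:1383822-1383851 (NDUFS7, plus strand), chr2:206159584-206159613 (NDUFS1, minus strand), chr11:112086753-112086782 and chr11:112086784-112086813 (SDHD, plus strand), chr2:97646014-97646043 (COX5B, plus strand), chr10:7788145-7788174 (ATP5F1C, plus strand), chr12:53676106-53676135 (ATP5MC2, minus strand) and chr21:25735155-25735184 (ATP5PF, minus strand).
NDUFS7, NRF1 core: gttccggtttcCGCATGCGctccgagccgc
NDUFS1, ETS core: aggctggggccACTTCCGGcggaactgcgg
SDHD, NRF1 core: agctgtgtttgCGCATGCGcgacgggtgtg
SDHD, ETS core: accgcctctcgACTTCCGGttcacccagca
COX5B, ETS core: gaagcccgcccCCGGAAGTccctcctgtct
ATP5F1C, NRF1 core: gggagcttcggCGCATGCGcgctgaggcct
ATP5MC2, NRF1 core: ggcccgggtcaCGCATGCGctgagccttcc
ATP5PF, NRF1 core: cactcaaagagCGCATGCGtacagagcaag

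Depth set how far each assay could be read. The mRNA-seq libraries held 7902427 to 14144455 coding reads and a median of 638 to 1235 reads per subunit. The Ribo-seq libraries held 46239 to 1718521 CDS reads and a median of 5 to 204 reads per subunit, with at least 10 reads in 15 to 78 of the 78 subunits. Young replicate 1 and old replicate 2 stood apart in Ribo-seq, with 34.4% and 15.0% of their reads in CDS, and were shallow together with all 3 ICM libraries. Counted over 5′ UTR, CDS and 3′ UTR reads only, subunit footprints lay almost wholly in the CDS (90.0% to 99.4%). On that measure those 2 libraries had 95.6% and 90.0% for the subunits, beside 77.5% and 40.6% over all genes. In mRNA-seq, by contrast, 19.4% to 30.5% of subunit reads lay in the 5′ UTR, beside 9.25% to 13.5% over all genes.

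The share of coding reads in the 78 subunits gave the first view of the module. In Ribo-seq it was 1.46%, 1.29% and 1.27% in young replicates 1 to 3, 1.19%, 1.04% and 1.02% in old, and 1.28%, 1.17% and 1.39% in ICM. All old libraries lay below all young libraries (1.08% ± 0.0935 and 1.34% ± 0.107, mean ± SD, n = 3), and ICM (1.28% ± 0.106) overlapped young. In mRNA-seq the share was 0.816%, 0.792% and 0.783% in young, 0.774%, 0.827% and 0.694% in old, and 0.885%, 0.872% and 0.883% in ICM. There the ICM libraries (0.880% ± 0.00716) lay above all others, and old (0.765% ± 0.067) overlapped young (0.797% ± 0.0173). This mRNA share and its tests below count 5′ UTR, CDS and 3′ UTR reads, whereas the Ribo-seq share counts CDS reads. The 5′ UTR held 24.2% to 30.5% of subunit mRNA reads in ICM and 19.4% to 26.5% in young. With CDS reads alone the ICM libraries overlapped young and old. Two-sided exact permutation tests gave p = 0.1 for old against young in Ribo-seq and for ICM against young and against old in mRNA-seq, the smallest p that 3 against 3 allows, and p = 0.6 for ICM against young in Ribo-seq and for old against young in mRNA-seq.

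**Figure D1:**
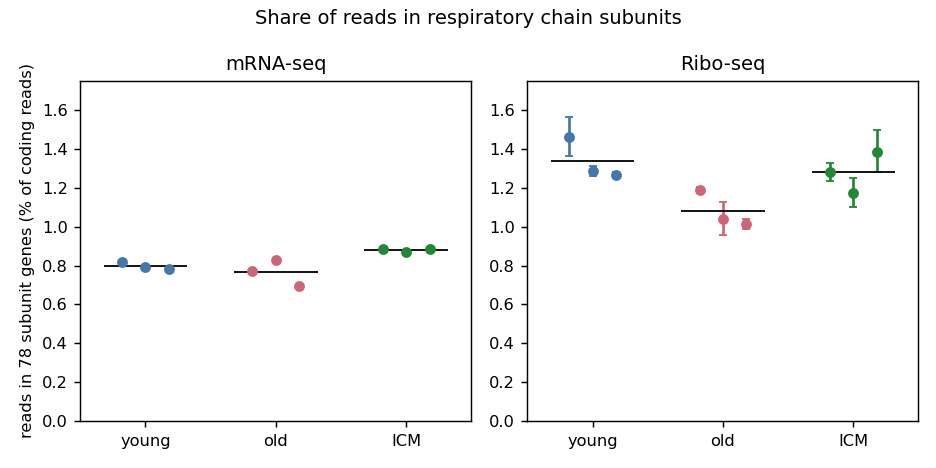
Percent of coding reads that lay in the 78 subunits, for each library (points, with exact 95% binomial intervals that cover counting error only) and the mean of each condition (lines), in mRNA-seq and in Ribo-seq. Old footprint libraries (1.02% to 1.19%) sit below young (1.27% to 1.46%), and ICM mRNA-seq libraries (0.872% to 0.885%) sit above the others. The mRNA-seq share counts 5′ UTR, CDS and 3′ UTR reads, and with CDS reads alone ICM overlapped young and old.

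The complexes differed in footprint density. In young cells the median footprint density was 658.7 CPM per kilobase of coding sequence in complex IV, 467.3 in complex V, 366.7 in complex III, 214.5 in complex I and 150.0 in complex II, and this order of medians was the same in old cells (577.7, 388.9, 310.8, 180.2 and 130.6). In ICM cells the order was also IV (540.1), V (396.0), III (287.5), I (208.6) and II (170.1). The mRNA coding reads of young cells had the same order of medians (388.7, 309.6, 275.0, 135.6 and 124.5 CPM per kilobase). The median ratio of footprint to mRNA density in young cells differed less. It was 1.54 in complex IV, 1.51 in V, 1.42 in III, 1.54 in I and 1.21 in II. Members of 1 complex spread widely around these medians. NDUFA4 (1331 ± 182 CPM per kilobase in young, SD, n = 3) and the complex I accessory subunit NDUFS5 (1267 ± 96.3) were the densest in their complexes, and SDHA, the flavoprotein of complex II, was at 33.7 ± 2.48 beside 252.3 ± 69.8 for its membrane anchor SDHC. Some small subunits rest on few reads in the shallow libraries, so that levels of single genes there are rough.

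ATP synthase has a known stoichiometry, with 3 alpha and 3 beta subunits around 1 gamma. In young cells the footprint density of ATP5F1B (beta) was 2.55 ± 0.386 times that of ATP5F1C (gamma), and ATP5F1A (alpha) was at 1.98 ± 0.490 times gamma. OSCP (ATP5PO) and subunit b (ATP5PB), single copies in the peripheral stalk, were at 0.927 ± 0.0386 and 0.914 ± 0.105 times gamma. Delta (ATP5F1D) was at 1.34 ± 1.07 times gamma. Other subunits did not all lie near gamma (283.7 CPM per kilobase). ATP5ME was at 275.9, ATP5PF at 408.0, ATP5PD at 467.3, ATP5MD at 942.9 and ATP5F1E at 1093, so these densities do not follow stoichiometry in general. The c-ring genes ATP5MC1, ATP5MC2 and ATP5MC3, which encode the same mature protein, summed to 5.64 ± 1.3 times gamma. Beta and alpha did not keep 1 ratio across conditions. The footprint ratio of beta to alpha was 1.17, 1.33 and 1.42 in young replicates 1 to 3, 1.64, 1.78 and 1.85 in old, and 1.96, 1.76 and 1.16 in ICM, so that old lay wholly above young while ICM spanned both. In mRNA coding reads it was 1.81, 1.76 and 1.83 in young, 2.18, 2.30 and 2.24 in old, and 2.36, 2.43 and 2.51 in ICM, with no overlap between any of the conditions. Exact two-sided permutation p was 0.1 for each mRNA comparison and for old against young in footprints, the smallest possible here, and 0.4 for ICM against young and 0.8 for ICM against old in footprints.

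**Figure D2:**
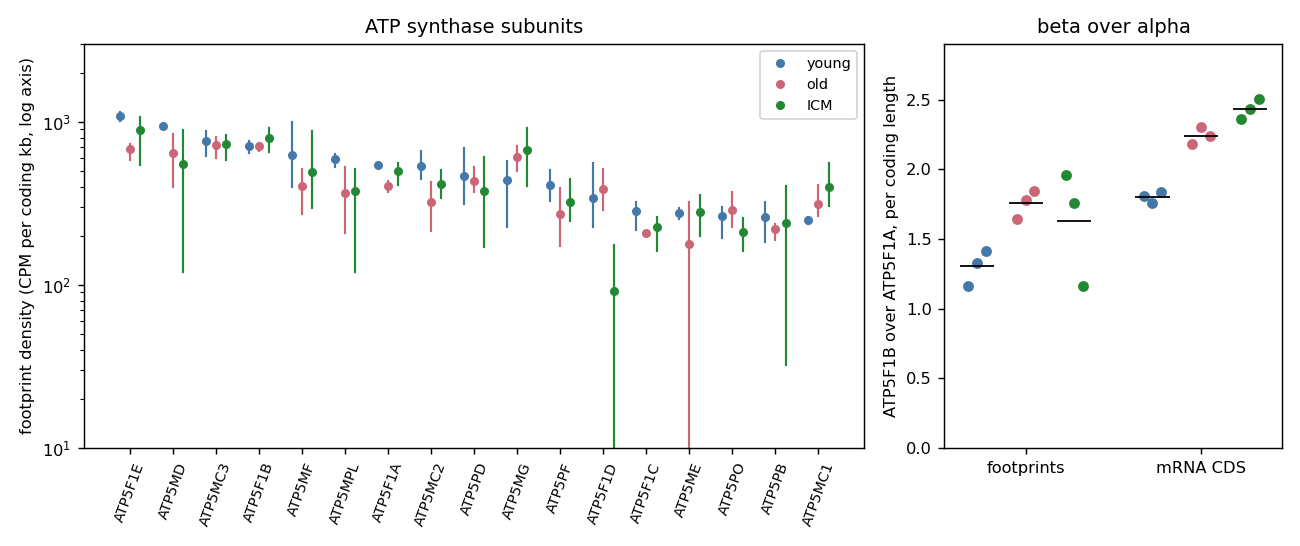
Left, footprint density of the 17 complex V subunits in CPM per kilobase of coding sequence on a log axis, where points are condition means and lines run from the lowest to the highest of the 3 libraries, and a line that meets the lower edge has a library at 0. Right, the ratio of ATP5F1B to ATP5F1A per coding length in each library (points) with the mean (lines), which in mRNA coding reads ran from 1.76 to 1.83 in young, 2.18 to 2.30 in old and 2.36 to 2.51 in ICM.

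ICM against young tests for changes under the compound at low passage. At the mRNA level most subunits moved, by small steps and in both directions. Of 91 members tested, 41 rose and 15 fell, at an adjusted p under 0.05 in edgeR's quasi-likelihood test with Benjamini-Hochberg adjustment over all 13173 genes. Over all genes tested, 71.0% were called, 34.9% higher and 36.1% lower, so that the members' called share (61.5%) was below the background while their calls lay mostly upward. The median log2 change was 0.18 over the members, 0.16 over the subunits and -0.01 over all genes, and members ranged from -0.72 to 1.05. The 5′ UTR held 24.2% to 30.5% of subunit reads in ICM and 19.4% to 26.5% in young. With CDS reads alone, 31 members rose and 13 fell, and the subunit median was 0.10.

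Within complex I, the catalytic core and the accessory subunits went different ways at the mRNA level. Of the 7 core subunits, which form the catalytic centre of the matrix arm, 4 fell and 1 rose (median -0.32), whereas 17 of the 30 accessory subunits rose and 4 fell (median 0.26). This split was not tested as such. Footprints did not show it, with medians of 0.03 over the 7 core subunits and 0.06 over the 29 accessory subunits tested. There 0 core subunits were called, and 4 accessory subunits rose and 0 fell. With CDS reads alone the counts were 4 lower and 0 higher among the core, and 13 higher and 3 lower among the accessory subunits. NDUFV1, which holds the flavin, was at 83.1, 80.7 and 78.6 CPM in young replicates 1 to 3, 77.6, 71.3 and 76.8 in old, and 59.4, 62.9 and 60.6 in ICM. ICM lay below all other libraries, and the log2 change against young was -0.41. NDUFS1 (-0.33) and NDUFS7 (-0.32), carriers of iron-sulfur clusters, also fell, and NDUFV2 rose by 0.23.

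NDUFA2 showed the largest rise of any member in mRNA-seq of ICM against young. This accessory subunit of the matrix arm was at 32.1, 31.0 and 31.3 CPM in young, 46.7, 49.0 and 46.1 in old, and 62.8, 64.6 and 68.2 in ICM, so that the 3 conditions did not overlap. Its log2 change was 1.05 ± 0.07 (SE, adjusted p = 7.95e-12, edgeR) in ICM against young and 0.59 ± 0.07 (adjusted p = 2.62e-07) in old against young. NDUFA7 rose by 0.79, NDUFB4 by 0.70 and NDUFB3 by 0.66 in ICM. NDUFAB1, the mitochondrial acyl carrier protein, which also serves fatty acid and lipoate synthesis, went the other way. It was at 63.6, 57.4 and 61.0 CPM in young, 66.0, 67.7 and 60.5 in old, and 40.4, 39.1 and 40.7 in ICM, with a log2 change of -0.60 ± 0.07 against young (adjusted p = 1.31e-07). Its footprints were at 158, 116 and 139 CPM in young and 159.8, 37 and 20.7 in ICM, which spread too far for a call.

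Complexes II, III and IV mostly rose or were not called in ICM against young. In complex II, SDHC rose by 0.51 and SDHB by 0.20, while SDHA (-0.10) and SDHD (0.09) were not called. SDHB lost its call without young replicate 2 (0.17, adjusted p = 0.15, edgeR), as it did without young replicate 3, ICM replicate 1 or ICM replicate 2. In complex III the small subunits UQCRQ (0.51), UQCR11 (0.49) and UQCR10 (0.41) rose, whereas the large core proteins UQCRC1 (-0.08) and UQCRC2 (-0.03) and the Rieske protein UQCRFS1 (0.02) were not called. In complex IV, COX7B (0.59), COX6B1 (0.36), COX4I1 (0.33), COX5B (0.30) and COX6A1 (0.28) rose and COX5A fell by 0.36. COX5A and COX5B, which are unrelated in sequence despite the shared name, thus moved apart, COX5A to 75.5, 77.9 and 76.0 CPM in ICM from 116, 89.4 and 91.6 in young.

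Complex V had as many falls as rises in ICM against young, 6 each of 17. The F1 head and stalk subunits ATP5F1A (-0.30), ATP5F1C (-0.29), ATP5F1D (-0.72), ATP5PB (-0.21) and ATP5PO (-0.20) fell, while ATP5F1B (0.13) was not called and ATP5F1E rose by 0.32. The c-ring genes, which differ in their import presequences, parted. ATP5MC1 was at 54.7, 54.9 and 49.3 CPM in young, 65.8, 75.4 and 54.9 in old, and 88.4, 91.3 and 79.5 in ICM, a rise of 0.71 (adjusted p = 3.63e-07, edgeR). ATP5MC2 was at 195, 177 and 167 CPM in young, 115, 124 and 92.5 in old, and 123, 125 and 122 in ICM, a fall of 0.54 on the log2 scale (adjusted p = 3.97e-06). ATP5MC3, at 168, 175 and 182 CPM in young and 187, 183 and 189.6 in ICM, was not called. Of all 10 subunits with an NRF1 core, 2 rose in ICM against young (NDUFB4 and COX6A1), 4 fell (among them NDUFS7, ATP5F1C and ATP5MC2) and 4 were not called (among them SDHD and ATP5PF). Of the 10 with an ETS core, 6 rose (COX5B among them), NDUFS1 fell and 3 were not called. Of the 11 with a YY1 core, 4 rose, 3 fell and 4 were not called. Over all 77 subunits tested 34 rose and 15 fell, and over all genes 34.9% were called higher and 36.1% lower. Whether calls differed by core was not tested, and each core had few genes.

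**Figure D3:**
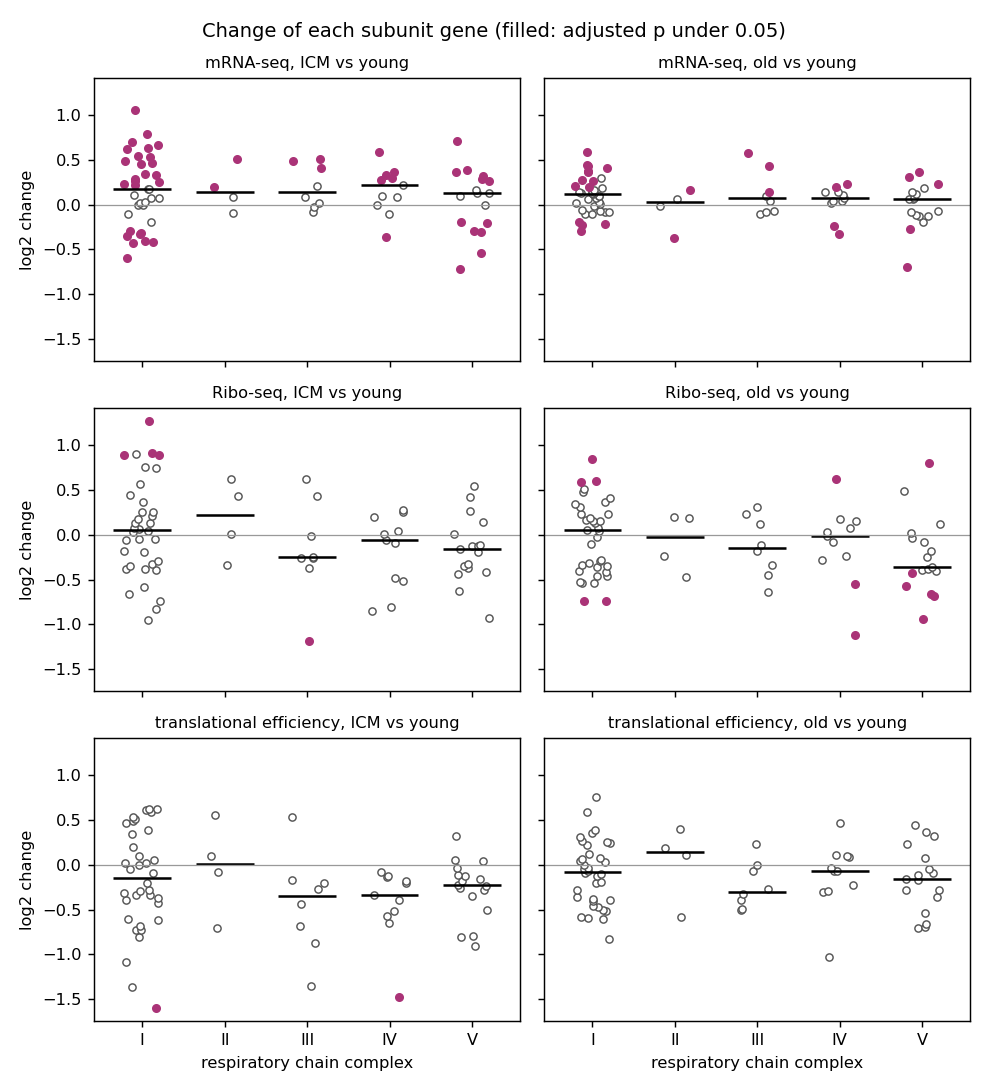
Log2 change of each subunit by complex (points, filled where the adjusted p was under 0.05), in mRNA-seq, Ribo-seq and translational efficiency, for ICM against young and old against young, with the median of each complex (lines). In mRNA-seq of ICM against young the medians lie between 0.13 and 0.22 for complexes I to V while single subunits run from -0.72 to 1.05.

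Members that are not subunits moved as well. NDUFAF1, which helps to join the membrane arm of complex I, was at 18.6, 17.1 and 19.0 CPM in young, 15.6, 17.6 and 14.8 in old, and 36.2, 36.8 and 38.5 in ICM (1.03 ± 0.09 against young, adjusted p = 3.88e-10, and 1.21 ± 0.09 against old, adjusted p = 3.53e-11, edgeR). Every ICM library was above every other library. Of the 8 NDUFAF members, 4 rose in ICM against young. ATP5IF1, which blocks ATP hydrolysis by the synthase, rose in both conditions, from 76.8, 66.0 and 72.3 CPM in young to 135, 129.5 and 121 in old (0.84, adjusted p = 3.18e-10) and 120.1, 117 and 120.0 in ICM (0.73, adjusted p = 2.17e-09).

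Footprints of ICM against young moved in fewer members. Of 84 members tested, 5 rose and 1 fell, where 26.6% of the 4643 genes tested were called (13.7% higher and 12.9% lower), and the members' share was 7.14%. The subunit median was -0.05 beside -0.00 over all genes. The 5 rises were NDUFV3 (1.26), NDUFAF1 (1.16), NDUFA11 (0.91), NDUFA6 (0.89) and NDUFB11 (0.89), which all rose in mRNA-seq too, and NDUFAF1, NDUFA6 and NDUFA11 lost their calls without 5, 4 and 2 of the 6 lysates in turn. NDUFV3 was at 35.2, 62.9 and 62.7 CPM in young and 93.2, 148 and 352 in ICM, and without ICM replicate 3 its change was 0.73 (adjusted p = 0.15, edgeR). The call was also lost without young replicate 2 (adjusted p = 0.057) or young replicate 3 (adjusted p = 0.068). UQCRB, a small subunit near the quinone sites of complex III, fell by 1.18 on the log2 scale (adjusted p = 0.0238). It was at 581, 232 and 190.4 CPM in young and 88.8, 61.8 and 249 in ICM, so that the groups overlapped, and without ICM replicate 1 the change was -0.94 (adjusted p = 0.15). In mRNA-seq UQCRB was not called (0.08).

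Old against young asks what replicative senescence does to the same genes. In mRNA-seq 22 members rose and 12 fell of 91, where 66.1% of all genes were called (32.4% higher and 33.7% lower) and 37.4% of the members. The subunit median was 0.07, beside -0.01 over all genes. In complex I, NDUFA2 (0.59), NDUFB2 (0.45) and NDUFC2 (0.42) led the rises. In mRNA CDS reads per kilobase, NDUFC2 was at 59.2 to 93.7 CPM in young and 74.55 to 105.1 in old, which overlapped. NDUFB2 overlapped too (191.2 to 267 and 250.4 to 378.1), and NDUFA2 did not (109.1 to 116 and 166.6 to 185.9). NDUFA9 fell by 0.30, and of the 7 core subunits NDUFS1 alone was called (-0.19), a call lost in 1 of 6 fits that left out a lysate. SDHA fell by 0.38 while SDHC rose by 0.16. UQCR11 rose by 0.58, COX7C fell by 0.32 and COX7A2 by 0.24. In complex V, ATP5MC2 fell by 0.70 (adjusted p = 1.44e-07, edgeR) and ATP5F1A by 0.27, and ATP5F1D rose by 0.36 and ATP5MC1 by 0.31. Among assembly factors NDUFAF8 rose by 0.75, from 36.8, 37.8 and 38.8 CPM in young to 63.1, 65.7 and 62.6 in old, and NDUFAF2 (-0.54), NDUFAF5 (-0.42) and NDUFAF7 (-0.42) fell. The balance of these calls depended on single old libraries. Without old replicate 2, 18 members rose and 20 fell and the subunit median was 0.012, and without old replicate 3, 37 rose and 9 fell and the median was 0.15. The call of NDUFAF5 was lost without young replicate 1 (-0.29), young replicate 2 (-0.40) or old replicate 3 (-0.31).

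Footprints of old against young fell in 9 members and rose in 6 of 84, where 36.3% of all genes were called (19.3% higher and 17.0% lower) and 17.9% of the members. Most of these calls were fragile. With DESeq2, or without young replicate 2, the fall of COX7B, taken up below, was the sole call left. Fewer members were also called with a replicate block. The subunit median was -0.09 beside 0.02 over all genes. Complex V stood lowest, with 13 of its 17 subunits below 0 and a median of -0.36. ATP5PF (-0.94), ATP5MD (-0.69), ATP5F1E (-0.66), ATP5F1C (-0.57) and ATP5F1A (-0.42) fell there, and ATP5F1D rose by 0.79. The ATP5PF call was lost without young replicate 2 (-0.79) or old replicate 3 (-0.80). ATP5F1A, the catalytic-head partner of beta, was at 916, 895 and 896 CPM in young, 718, 619.5 and 665 in old, and 683, 865 and 933 in ICM, so that old lay below young. ATP5F1B showed no such step, at 1021, 1139 and 1212 CPM in young and 1130.0, 1057 and 1175 in old (-0.04). The call of ATP5F1A (adjusted p = 0.0483, edgeR) was lost in 5 of 6 fits that left out 1 lysate, with log2 changes from -0.54 to -0.33.

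COX7B, a small complex IV subunit, had the largest footprint fall in old cells. It was at 194, 140.1 and 99.2 CPM in young, 65.8, 36.4 and 41.1 in old, and 71.0, 74.1 and 41.5 in ICM. Old and ICM lay below all young libraries for this symbol. Its footprints may be divided with those of the near copy COX7B2. COX7B2 was at 17.6, 11.4 and 6.84 CPM in young, 3.87, 0 and 7.47 in old, and 8.88, 49.4 and 0 in ICM. With both symbols counted, ICM replicate 2 would not lie below young replicate 3, while old would stay below young. The log2 change of COX7B in old was -1.11 ± 0.26 (adjusted p = 0.00102, edgeR), a call kept without each lysate in turn, with -1.68 without old replicate 1. The ICM change (-0.85, adjusted p = 0.0975) was not called. Its mRNA was at 67.1, 71.2 and 68.0 CPM in young, 67.5, 81.5 and 58.6 in old (0.01, not called), and 99.7, 108 and 104 in ICM (0.59, adjusted p = 2.13e-06). NDUFB3 of the complex I membrane arm had a like profile, with footprints at 106, 143 and 112 CPM in young, 73.5, 72.9 and 78.5 in old and 75.4, 24.7 and 124 in ICM, and mRNA at 46.3, 40.9 and 40.7 in young and 68.5, 66.7 and 66.4 in ICM. Its footprint change in old was -0.74 (adjusted p = 0.0163, edgeR), a call lost in 4 of 6 fits without 1 lysate. NDUFB6 of the same arm (-0.74) and COX7A2 of complex IV (-0.55) completed the falls. NDUFA6 (0.84), ATP5F1D (0.79), ATP5IF1 (0.66), COX8A (0.62), NDUFA11 (0.60) and NDUFA1 (0.59) were the 6 rises. Each had 1 or more old libraries inside the young range, and calls were lost in fits that left out 1 lysate. ATP5F1D was no longer called without young replicate 2 (0.51), young replicate 3 (0.42) or old replicate 1 (0.40), and the same lysates ended the calls of ATP5IF1 (0.50, 0.58 and 0.36) and NDUFA6 (0.63, 0.67 and 0.77). NDUFA11 kept its call in 1 of 6 such fits, that without old replicate 2 (0.73), and was at 0.28 without old replicate 1.

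**Figure D4:**
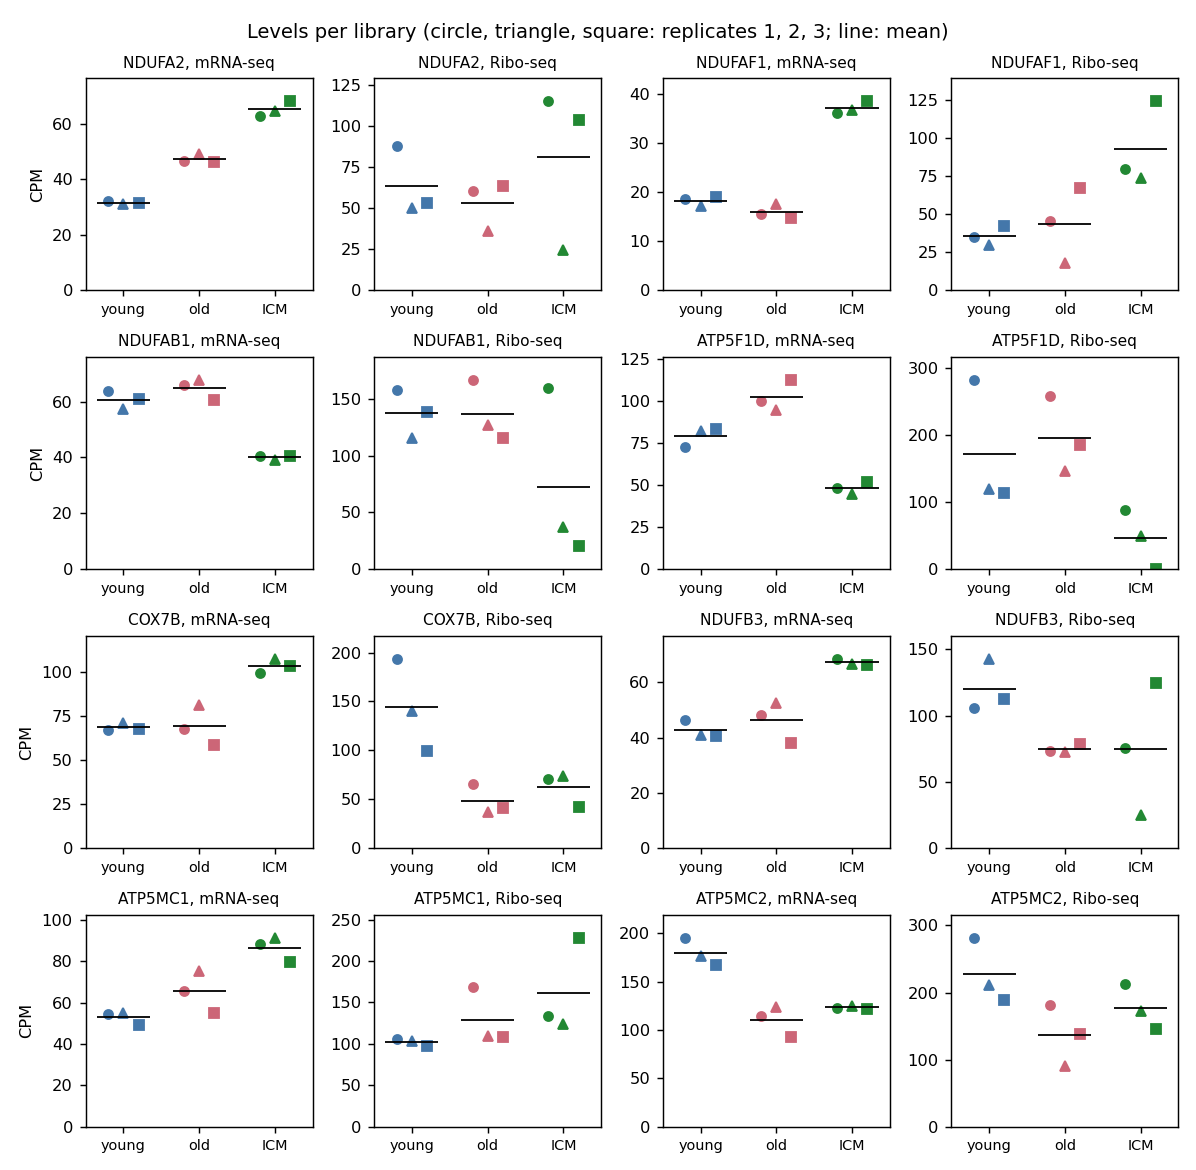
Level in CPM of 8 members in each library (circle, triangle and square for replicates 1, 2 and 3) with the mean of each condition (lines), mRNA-seq beside Ribo-seq. COX7B and NDUFB3 show mRNA higher in ICM (99.7 to 108 and 66.4 to 68.5) with footprints in old below young, and ATP5F1D parts old (94.5 to 112 in mRNA) from ICM (44.7 to 51.9).

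ATP5F1D, the delta subunit of the central stalk, was called in opposite directions in old and ICM cells. Its mRNA was at 72.4, 82.4 and 83.5 CPM in young, 99.9, 94.5 and 112 in old, and 48.3, 44.7 and 51.9 in ICM, with no overlap. The log2 change was 0.36 ± 0.08 in old (adjusted p = 0.000274, edgeR), -0.72 ± 0.08 in ICM (adjusted p = 4.33e-08) and -1.08 ± 0.08 in ICM against old (adjusted p = 4.88e-11). Its footprints were at 282, 119 and 114 CPM in young, 257, 146 and 185 in old, and 88.8, 49.4 and 0 in ICM, where the ICM libraries held 20, 4 and 0 reads. In footprints, ICM against old gave -1.73 ± 0.39 (adjusted p = 0.00144), a call kept without each lysate in turn, with values from -2.95 (without ICM replicate 1) to -1.43 (without old replicate 1). ICM against young (-0.93, adjusted p = 0.0929) was not called. NDUFAF7, a methyltransferase of complex I assembly, was also called in opposite directions in mRNA-seq, at 16, 14.6 and 15.9 CPM in young, 9.67, 12.5 and 12.1 in old and 21.5, 17.9 and 21.2 in ICM. Its fall in old was not called with CDS reads alone (-0.26), and it did not pass the filter in Ribo-seq.

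ICM against old compares the treated state with senescence directly. In mRNA-seq 29 members rose and 11 fell, where 63.3% of all genes were called (30.7% higher and 32.6% lower) and 44% of the members, and the subunit median was 0.10 beside -0.01. With CDS reads alone, 15 rose and 12 fell and the subunit median was -0.00. The core of complex I had 4 falls and 1 rise here too, with NDUFS7 (-0.37) among the falls. NDUFB4 (0.63), COX7B (0.58), NDUFB3 (0.53) and COX7A2 (0.46) rose, and COX5A fell by 0.41. Among assembly factors, NDUFAF2 (0.81) and NDUFAF7 (0.81) rose. In footprints 2 members rose and 1 fell of 84, where 13.4% of all genes were called (5.79% higher and 7.62% lower). NDUFA9, which sits at the junction of the arms of complex I, was at 75.4, 54.7 and 85.9 CPM in old and 204, 148 and 145 in ICM (1.21 ± 0.30, adjusted p = 0.00444, edgeR), and was no longer called without ICM replicate 1 (0.80) or old replicate 1 (1.14). NDUFV3 rose by 1.10, a call lost in 5 of 6 fits without 1 lysate, and by 0.54 without ICM replicate 3.

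Translational efficiency, the change in footprints relative to the change in mRNA, lay below 0 for most members in each comparison. Of 84 members tested, 60 had a change below 0 in ICM against young, 53 in old against young and 53 in ICM against old, beside 2250, 2171 and 2412 of all 4618 genes. The subunit median in ICM against young was -0.22 beside 0.02 over all genes. All 11 complex IV subunits tested were below 0 (median -0.34), as were 14 of 17 in complex V, 7 of 8 in complex III, 18 of 29 accessory subunits of complex I and 3 of its 7 core subunits. The fitted change was smaller than its SE in 42 of the 84, and 2 members were called, where 2.08% of the 4618 genes tested were. These were NDUFB3 (-1.60 ± 0.38, adjusted p = 0.0171, edgeR) and COX7B (-1.47 ± 0.38, adjusted p = 0.0303). Their footprint changes were -0.83 and -0.85, not called, and 29 of the 84 members had an mRNA change above 0 with a footprint change below 0. The call of NDUFB3 was lost without young replicate 2 (-1.46) or young replicate 3 (-1.69), and that of COX7B without young replicate 2 (-1.48), young replicate 3 (-1.81) or ICM replicate 1 (-1.72). Footprints of COX7B may also be divided with COX7B2, which was not counted with it here. In old against young (background 1.47%) and ICM against old (background 0.282%) edgeR called 0 of 84 members, as did DESeq2, and the subunit medians were -0.09 and -0.10. At an unadjusted p under 0.05 in edgeR there were 11 and 8 of 84 members, beside 588 and 483 of all 4618 genes, which are similar shares. The ICM footprints behind these values are the shallowest of the series, and the part of depth in them was not tested. These fits also set CDS footprints against mRNA reads that include both UTRs. The 5′ UTR held 24.2% to 30.5% of subunit mRNA reads in ICM and 19.4% to 26.5% in young.

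Isoforms used mainly in other tissues were at or near the floor. COX6A2, COX6B2, COX8C and COX4I2 had 0 footprint reads in all 9 libraries. COX7A1, the heart and muscle form of COX7A2, had 14 footprint reads in all and fell short of the minimum, and its mRNA reads were 18, 30 and 22 in young, 2, 14 and 4 in old, and 118, 79 and 87 in ICM. NDUFA4L2, a paralogue of NDUFA4, had 1 footprint read. Just inside the minimum were NDUFAF6 with 22 reads, COX7B2 with 37 and NDUFAF5 with 43, and ATP5S (15) lay just outside with COX7A1. COX7B2, a near copy of COX7B, had footprint reads in 7 libraries but 1 mRNA read in all, and it was dropped by the filters of both assays. The Ribo-seq filter also dropped NDUFA5 and NDUFAF2, NDUFAF4, NDUFAF5, NDUFAF6, NDUFAF7 and NDUFAF8, so counts over 84 members say nothing of them. Reads of UQCRH and UQCRHL (279 and 262 footprints in all), ATP5MG and ATP5MGL (874 and 284), ATP5MF and ATP5MF-PTCD1 (612 and 270), and NDUFC2 and NDUFC2-KCTD14 (520 and 393) may be divided between the symbols, and these genes are uncertain. The same holds for footprints of COX7B and COX7B2 (432.5 and 37).

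The surrounding pathway was read from lists of genes outside the complexes. Of 43 assembly factors, 26 rose and 10 fell in mRNA-seq of ICM against young, 15 and 11 in old against young, and 25 and 5 in ICM against old, against the same background shares. This list includes the NDUFAF members. SURF1, which assembles complex IV, rose by 1.16 in ICM and COX20 fell by 0.56. Of 17 electron carriers and coenzyme Q enzymes, 7 rose and 3 fell in ICM against young. ETFB, which passes electrons from fatty acid oxidation towards coenzyme Q, was the leading rise (153 CPM in ICM and 54.1 in young, 1.5 ± 0.07), and its footprints rose with it (1.67 ± 0.29). Of 14 citric acid cycle enzymes, 3 rose and 3 fell in ICM against young and 2 rose and 5 fell in old against young. CS, citrate synthase, fell by 0.74 in ICM and by 0.58 in old, and IDH2 rose by 0.55 in ICM.

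Regulators and carriers differed again. Of 14 regulators of mitochondrial biogenesis tested, 3 rose and 5 fell in ICM against young and 3 rose and 8 fell in old against young. TFAM, which packages and transcribes mitochondrial DNA, fell by 0.95 in ICM and by 0.85 in old, and NRF1 fell by 0.89 in ICM. Of 8 adenine nucleotide and phosphate carriers, uncoupling proteins and outer membrane channels, 2 rose and 4 fell in ICM against young, 3 and 3 in old against young, and 1 and 7 in ICM against old. UCP2 fell by 1.83 in ICM and SLC25A5, the adenine nucleotide carrier of dividing cells, by 1.04. SLC25A6 fell by 0.76 at the mRNA level in old cells while its footprints (0.46, adjusted p = 0.068, edgeR) were not called, and its translational efficiency rose by 1.24 (adjusted p = 9.23e-05). In all these bulk lysates, a change in every cell and a change in the share of cells that carry an mRNA cannot be told apart, and levels are relative to the other mRNAs of the library.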

How the data were processed

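Sample titles gave each library its group and replicate number. The deposited tables hold expected counts, reads per gene symbol by transcript region, that the authors did not scale to depth. Values above 0 were fractional in 14.1% to 23.2% of cases, depending on the library, and were rounded. Processing notes name STAR 2.6.0c, featureCounts, DESeq2, deepTools and GRCh37 for the study as a whole, and the counting and annotation behind these tables are not given in the sources used here. Ribo-seq used CDS reads, and mRNA-seq the sum of 5′ UTR, CDS and 3′ UTR reads.

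Each assay was fitted with edgeR 4.0.16 (R 4.3.3, quasi-likelihood test, TMM scaling, filterByExpr), all 9 libraries in 1 fit, with Benjamini-Hochberg adjustment over all genes tested and a call at an adjusted p under 0.05. The filter kept 13173 genes in mRNA-seq and 4643 in Ribo-seq. Translational efficiency was the interaction of assay and condition over all 18 libraries, 4618 genes, with the lysate as a block, since the methods describe a shared lysate (deviations of paired libraries correlated with r from -0.0796 to 0.136). SE is the fitted change over the root of F. CPM are counts scaled by the TMM-adjusted library size, per kilobase of GENCODE coding length for densities. The comparisons with young share the young libraries. Pipelines were tested on simulated counts with 2-fold changes in ICM against young. They recovered 100% of these in mRNA-seq, 51.8% in Ribo-seq and 44.0% in translational efficiency, with 6, 3 and 2 false calls.

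Members, complexes, lists and the rule for named genes were chosen with earlier results of these data known. Named were core subunits, isoform pairs, the 3 largest rises and falls per measure and comparison among called members at a mean of at least 5 CPM, members with opposite calls, and those at the minimum. Other members named, and the beta to alpha ratio, were chosen after their values were seen. Alternatives were RLE scaling, DESeq2 1.42.0, no filter, only the compared conditions, a threshold of 0.15, CDS reads only, thinned mRNA-seq, replicate blocks and leaving out libraries. An item withheld from the text is not reported here, although counts and medians include every member.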

Additional observations from a re-analysis of the deposited data

How the results depend on the processing

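Call counts in mRNA-seq held under most alternatives, and Ribo-seq and translational efficiency (TE) counts did not. The upward lean in mRNA-seq was not kept in every fit. It was lost in old against young without old replicate 2 or when thinned. In ICM against old the subunit median was near 0 with CDS reads only. Over all alternatives, 95 counts of called members stayed within 1.5 times of the reported one, 13 were larger and 21 smaller, and of the subunit medians 103 moved by less than the spread between replicates, 13 moved further and 4 changed sign. mRNA-seq thinned to Ribo-seq depth called 12, 10 and 11 members in ICM against young, old against young and ICM against old, in place of 56, 34 and 40, where Ribo-seq called 6, 15 and 3. Ribo-seq called, for ICM against young, 3 members with DESeq2, 3 with no filter, 3 with the compared conditions only, 14 at a threshold of 0.15 and 1 to 7 without 1 lysate (1 without young replicate 3, 2 without young replicate 2, 3 without ICM replicate 3). For old against young these were 1, 6, 24, 27 and 1 to 14 (1 without young replicate 2, 3 without young replicate 3, 4 without old replicate 3, 7 without old replicate 1), and 3 with a replicate block. For ICM against old they were 10 at 0.15, 5 without young replicate 1 and old replicate 2, and 1 to 4 without 1 lysate (1 without old replicate 1). TE called, for ICM against young, 1 with DESeq2, 0 with the compared conditions only, 4 with no replicate block, 6 at 0.15 and 0 to 3 without 1 lysate (0 without young replicate 2 or 3). For old against young it called 1 with RLE scaling, 6 with the compared conditions only, 8 with no replicate block, 1 with CDS reads only, 1 at 0.15 and 0 to 1 without 1 lysate. Subunit medians became, in mRNA-seq, 0.10 in ICM against young and -0.00072 in ICM against old with CDS reads only, and -0.062 in old against young when thinned, where UQCRC1 came to -0.056. In Ribo-seq they were -0.25 with no filter, -0.23 with a replicate block and -0.28 to -0.065 without 1 lysate in ICM against young, -0.28 to -0.023 without 1 lysate in old against young, and -0.052 with no filter and -0.16 to 0.25 without 1 lysate in ICM against old. The median of all genes shifted by -0.41 and -0.38 with no filter in the 2 ICM comparisons. For TE they were -0.37 with no filter, -0.32 without young replicate 1 and old replicate 2, -0.47 to -0.20 without 1 lysate in ICM against young, and -0.34 to 0.0087 without 1 lysate in ICM against old. The cause of these shifts was not tested. TMM over both assays together, added after the data were seen, gave the same TE counts of 2, 0 and 0. Replicate numbers were not stated to pair samples across conditions. Deviations of libraries with the same number correlated with r from -0.0555 to 0.103. Libraries of the same lysate gave -0.0796 to 0.136, so these correlations cannot decide whether samples were paired. Of 55 named mRNA-seq calls, 50 were kept without each lysate in turn.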
